A study of Mus musculus with 9 samples.

Results

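Imprinted genes are transcribed mainly from the copy inherited from the mother or from the father, and many of them are used in the embryonic brain and in the tissue around its vessels. The 10 genes described here were Meg3, Peg3, Ndn, H19, Igf2, Cdkn1c, Kcnq1ot1, Mkrn3, Dlk1 and Snrpn, chosen by name from the 17487 genes with a row in any library, and all 10 had a row in all 9 libraries. They were followed in single cells of mouse neocortex at embryonic day E18.5. The deposited values do not separate the parental copies, so they give how much RNA of a gene was present and not which copy made it.

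The libraries were made from dissected neocortices of littermates from breedings of Tcf4 haploinsufficient mice, on the background labelled Tcf4ex4WT/lacZ, and the study's methods treat each library as a mouse. Tcf4 encodes a basic helix-loop-helix transcription factor. The 5 wildtype (WT) libraries carry the intact gene, and the 4 knockout (KO) libraries are homozygous for a lacZ/neomycin cassette ahead of the fourth exon, which removes the long protein isoforms in every cell of the animal and leaves shorter isoforms that start further downstream. The comparison sets WT2, WT3 and WT4 (WT2-WT4 below, values in that order) against KO4 and KO5 (values in that order), the 5 libraries that the study's own cell number and Tcf4 criteria leave. WT1, KO1 and KO2 held 118 to 331 kept cells and WT5 held 3630.

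Levels are mean unique molecular identifiers (UMIs, counted RNA molecules) of a gene per 10000 UMIs of a cell, averaged over the cells of a class. Kept cells had a median of 2217 to 4359 UMIs per library. The medians were 2478.5, 3636 and 4359 in WT2-WT4, 2290 and 2217 in KO4 and KO5 and 2226 in WT5. Both KO libraries compared were therefore shallower than WT2-WT4, and depth moves with genotype in the 5 libraries compared. Cells were placed in classes by marker gates: a cell entered a class when it held UMIs of at least 3 of the 8 markers of that class and more than of any other class. Of 19681 kept cells, 13918 (70.7%) entered a gate, 33.9% of these at exactly 3 markers. The share at exactly 3 differed between libraries and did not follow genotype in all of them. In the radial glia or astrocyte gate these were 23 of 129, 13 of 156 and 55 of 498 cells in WT2-WT4. In KO4 and KO5 they were 151 of 337 and 90 of 156. In WT5 they were 112 of 177, and in KO1 and KO2 they were 24 of 88 and 9 of 42. Among genes outside the marker lists, Itm2a and Igfbp7 were among the leading genes of the endothelial gate, Ctss and Trem2 of the microglial gate, Tnc and Apoe of the radial glia or astrocyte gate and Nrp1 and Cntn2 of the glutamatergic gate. In the mural gate Igf2 ranked 1 and Dlk1 ranked 3 among them. Ungated cells made up 14.4% to 27.1% of WT2-WT4, 37.2% and 40.7% of KO4 and KO5 and 42.9% of WT5.

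As a check of the labels, Tcf4 over all kept cells was 12.2, 12.6 and 12.2 UMIs per 10000 in WT2-WT4, against 9.29 (KO4) and 7.59 (KO5). The libraries labelled WT1 (4.65) and WT5 (7.20) lay below every KO library, and the library labelled KO1 (16.7) lay above every WT library. RNA of neurons was also found in cells gated as something else, to a different extent in each library. Stmn2 and Tubb3, neuronal cytoskeleton genes outside the gates that were picked after their values were seen, stood in the radial glia or astrocyte gate at 18% to 32% (Stmn2) and 15% to 30% (Tubb3) of their glutamatergic level in WT2-WT4. In KO4 and KO5 they stood there at 73% and 83% (Stmn2) and 68% and 78% (Tubb3), and in WT5 at 89% (Stmn2) and 93% (Tubb3). The part of this carry-over in the differences below was not tested, and its values are repeated where they move with a result.

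The 10 genes fall in a few chromosomal clusters. On chromosome 12 (GRCm38, GENCODE vM21), Dlk1 (chr12:109452823-109463336, plus strand) codes for a membrane protein related to Notch ligands, and Meg3 (chr12:109541001-109571726, plus strand) for a long non-coding RNA downstream of it. On chromosome 7, H19 (chr7:142575529-142578143, a long non-coding RNA) lies beside Igf2 (chr7:142650766-142666816, insulin-like growth factor 2), both on the minus strand. Kcnq1ot1 (chr7:143203458-143296549) is a non-coding RNA antisense to Kcnq1, and Cdkn1c (chr7:143458339-143461050), a cyclin-dependent kinase inhibitor, lies nearby. Ndn (chr7:62346569-62350262, the MAGE family protein necdin), Mkrn3 (chr7:62417593-62420139, a makorin ring finger protein) and Snrpn (chr7:59982495-60140219, a small nuclear ribonucleoprotein subunit that shares its transcript with Snurf) belong to the Prader-Willi region, and Peg3 (chr7:6703892-6730431, a zinc finger protein) stands alone among the members. Meg3, H19, Igf2, Mkrn3 and Snrpn overlap other genes of this annotation on their own strand. How reads in the overlaps were counted was not examined.

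The windows around the transcription start (250 bases before to 50 after) are shown for the genes on which the class differences turn: Dlk1, Meg3 and Igf2, which were high in vessel-wall cells, and Ndn, which was low there. They are RefSeq sequences on GRCm38.p6, read along the gene's strand, and capitals mark CG dinucleotides, the bases that DNA methylation marks at imprinted regions. They cover chr12:109452573-109452872 (Dlk1), chr12:109540746-109541045 (Meg3), chr7:142658755-142659054 (Igf2, minus strand, chosen as the richest in CG of 4 start windows) and chr7:62348027-62348326 (Ndn, inside the gene's GENCODE span).
Dlk1: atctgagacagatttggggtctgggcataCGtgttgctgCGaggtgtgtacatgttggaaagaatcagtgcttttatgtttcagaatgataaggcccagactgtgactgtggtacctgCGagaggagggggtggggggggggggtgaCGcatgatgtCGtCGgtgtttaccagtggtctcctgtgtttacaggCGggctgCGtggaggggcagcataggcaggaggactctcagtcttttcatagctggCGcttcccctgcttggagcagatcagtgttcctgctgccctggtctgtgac
Meg3: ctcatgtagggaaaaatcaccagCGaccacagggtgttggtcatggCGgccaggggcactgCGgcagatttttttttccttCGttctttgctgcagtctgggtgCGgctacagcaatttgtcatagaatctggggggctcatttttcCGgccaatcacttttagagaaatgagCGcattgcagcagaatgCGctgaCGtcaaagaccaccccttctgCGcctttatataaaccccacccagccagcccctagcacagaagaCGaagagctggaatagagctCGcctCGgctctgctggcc
Igf2: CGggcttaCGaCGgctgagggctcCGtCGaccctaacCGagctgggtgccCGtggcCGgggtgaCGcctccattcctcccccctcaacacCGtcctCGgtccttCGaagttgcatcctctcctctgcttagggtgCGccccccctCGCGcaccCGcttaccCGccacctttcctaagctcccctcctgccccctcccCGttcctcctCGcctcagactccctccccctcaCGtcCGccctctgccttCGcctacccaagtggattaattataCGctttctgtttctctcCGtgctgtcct
Ndn: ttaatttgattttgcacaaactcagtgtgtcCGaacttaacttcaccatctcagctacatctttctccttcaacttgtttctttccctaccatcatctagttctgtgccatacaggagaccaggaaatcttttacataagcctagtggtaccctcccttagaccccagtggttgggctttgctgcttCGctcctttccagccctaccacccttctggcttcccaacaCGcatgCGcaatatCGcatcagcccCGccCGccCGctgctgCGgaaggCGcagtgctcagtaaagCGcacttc
The windows hold 9, 13, 24 and 11 CG dinucleotides, against a median of 7 over 32851 windows. The Igf2 window holds more of them than 80.0% of all windows, but it was chosen as the richest of 4, and the others hold 2, 14 and 7. A further start window of Meg3, not shown, holds 1. The E-box CANNTG, the kind of site that basic helix-loop-helix factors bind, was found in 72.3% of all windows, and CAGGTG or CACCTG in 20.2%. Of the 4 windows shown, the Igf2 window held 1 CANNTG on either strand and the Dlk1, Meg3 and Ndn windows none. Across the 15 windows of 8 members with an entry, CAGGTG or CACCTG occurred in 1 of the 4 windows of Snrpn and in that of Mkrn3. H19 and Cdkn1c had no entry.

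The members differed widely in level and in the classes that held them. Over all kept cells of the 5 libraries compared, Meg3 was the highest, at 6.93, 3.38 and 13.7 UMIs per 10000 in WT2-WT4 and 9.86 and 9.65 in KO4 and KO5. Snrpn (2.27 to 3.12), Ndn (2.06 to 2.87), Kcnq1ot1 (0.955 to 1.93) and Cdkn1c (0.801 to 1.03) followed, then Peg3 (0.317 to 0.480) and Mkrn3 (0.107 to 0.229). H19 (0.0655 to 0.0938), Igf2 (0.0522 to 0.0880) and Dlk1 (0.0464 to 0.0690) were near the bottom of the scale. The ranges of Snrpn and Ndn overlapped, as did those of H19, Igf2 and Dlk1. The levels are of 3′ tags, which count transcripts without regard to their length.

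**Figure D1:**
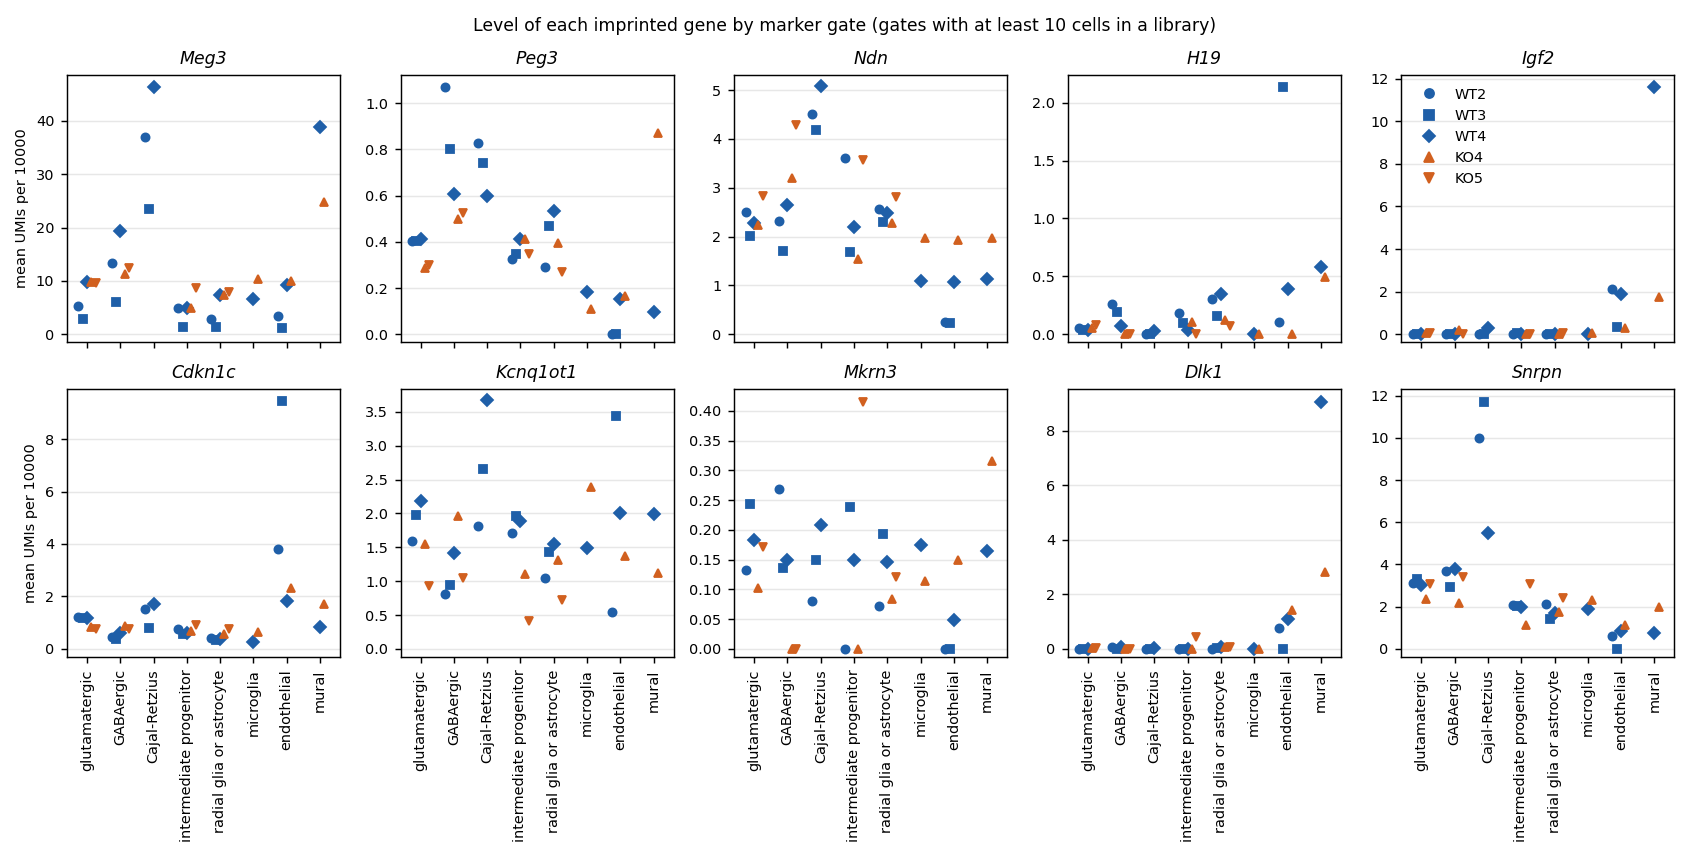
Mean UMIs per 10000 of the 10 imprinted genes (y axes, a scale of its own for each gene) in 8 marker gates (x axes). Each point is a library with at least 10 cells in the gate, with WT libraries in blue and KO libraries in orange. Meg3 is highest in the Cajal-Retzius and mural gates, and Igf2 and Dlk1 are highest in the mural gate, at 11.6 and 9.08 in WT4.

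Igf2, a growth factor gene, and Dlk1 were low in neurons, and in WT2-WT4 were far higher in vessel cells. In the glutamatergic gate of WT2-WT4, Igf2 stood at 0.00936, 0.00795 and 0.0142 UMIs per 10000 and Dlk1 at 0.00690, 0.00599 and 0.0101. In KO4 and KO5 the same gate had 0.0533 and 0.0467 of Igf2 and 0.0222 and 0.0443 of Dlk1, above all 3 of those libraries. These values rest on 28 and 13 UMIs of Igf2 and 10 and 13 of Dlk1. WT5 stood at 0.0491 and 0.0505 in this gate. Of all genes tested there, 48.5% did not overlap between the genotypes in either direction. In the vascular pool (endothelial, mural and fibroblast gates, 18 to 49 cells a library), Igf2 stood at 3.16, 5.79 and 5.80 and Dlk1 at 1.97, 4.31 and 4.01 in WT2-WT4. In KO4 and KO5 the vascular values were 0.690 and 0 for Igf2 and 1.67 and 0.141 for Dlk1, on 57 and 13 cells. A count of 0 in the 13 cells of KO5 allows up to 0.933 UMIs per 10000, for counting error only. No genotype fit was made in the vascular pool, where KO5 held few cells. The vascular cells of KO4 and KO5 held 11 of 63 and 0 of 28 Igf2 UMIs and 29 of 52 and 1 of 32 Dlk1 UMIs of their library, against 146 of 261 and 91 of 187 in WT4. Stmn2 in the vascular pool was 11.3 and 16.4 in KO4 and KO5 and 2.43 to 6.23 in WT2-WT4, and its part in these values was not tested. WT5, at 0.569 and 1.43 on 25 cells, lay below WT2-WT4 as well. In 11 choroid plexus cells of WT4, outside the pool, Igf2 was 3.57.

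Within the vascular pool the mural gate (pericytes and smooth muscle) had higher levels of both genes than the endothelial gate in WT4 and KO4, the libraries with at least 10 cells in each. In WT4, 18 mural cells had 11.6 UMIs of Igf2 and 9.08 of Dlk1 per 10000, against 1.91 and 1.09 in 28 endothelial cells. In KO4, 15 mural cells had 1.77 and 2.82 and 37 endothelial cells 0.303 and 1.44. Counted in UMIs the split varied, with 13 mural and 15 endothelial UMIs of Igf2 in WT2 and 12 and 17 of Dlk1 in KO4. Pooled over all 9 libraries, the 13 fibroblast cells had 10.3 UMIs of Igf2 per 10000 and the 68 mural cells 6.36. Over all 9 libraries, 33 of 68 mural cells had a UMI of Igf2, 41 had a UMI of Dlk1 and 25 had both. Of 116 microglial cells (52 in WT4 and 43 in KO4), which should lack both genes, 1 had a UMI of Igf2 and none had a UMI of Dlk1, which allows a share of cells with a UMI of up to 2.59%, for counting error only. Median depth in WT4 was 4193 UMIs in the mural and 3380.5 in the microglial gate. With cells thinned to 1800 UMIs and gated again, 76.2% of mural cells in WT4 had a UMI of Igf2 and 71.4% a UMI of Dlk1, against 83.3% and 88.9% at full depth. In the glutamatergic gate of WT4 the shares at full depth were 0.685% and 0.467%.

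H19 was sparse and uneven. It stood at 0.191, 2.98 and 0.439 UMIs per 10000 in the vascular pool of WT2-WT4, at 0.427 in KO4 and at 0 in KO5. Few cells held much of it: over all 9 libraries, 13 cells in the fibroblast gate held 56 UMIs of H19, against 20 in 68 mural and 17 in 130 endothelial cells. The same 13 cells held 67 UMIs of Igf2 and 80 of Cdkn1c, and the highest counts of H19, Igf2 and Cdkn1c in a cell were 20, 19 and 23. In the radial glia or astrocyte gate H19 was 0.303, 0.158 and 0.348 in WT2-WT4 and 0.124 and 0.0680 in KO4 and KO5. In the glutamatergic gate it was 0.0330 to 0.0536 in those WT libraries, with a UMI in 1.28% to 1.53% of cells.

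Cdkn1c, which holds back the cell cycle, was high in endothelial cells, at 3.79, 9.44 and 1.83 UMIs per 10000 in WT2-WT4 and 2.32 in KO4. In UMIs summed over all 9 libraries, Cdkn1c was 12.2 per 10000 in fibroblast, 2.98 in endothelial, 1.09 in mural and 1.08 in glutamatergic cells. The mural gate of the vascular pool thus did not share the higher level, and Cdkn1c differed within that pool. It was 3.38 in the 11 choroid plexus cells of WT4. Postmitotic glutamatergic neurons had more of it than radial glia in the same WT libraries, at 1.21, 1.19 and 1.18 against 0.403, 0.323 and 0.390. GABAergic cells lay between, at 0.460, 0.372 and 0.593. The GABAergic gate took 18.8% of the cells of WT4 and 0.74% to 5.32% of those of the other 4 libraries, so its cells are not the same mix in each library. Cells holding UMIs of cycling markers did not differ in one direction: in the radial glia or astrocyte gate, cycling cells of WT2-WT4 had 0.533, 0.280 and 0.423 of Cdkn1c and the other cells 0.319, 0.352 and 0.377.

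Meg3 was highest in Cajal-Retzius neurons, early-born cells of the marginal zone, at 37.0, 23.4 and 46.4 UMIs per 10000 on 31, 13 and 43 cells of WT2-WT4. Mural cells also held much of it, 38.8 in WT4 and 24.7 in KO4. GABAergic cells had 13.3, 6.12 and 19.3 in WT2-WT4, glutamatergic cells 5.40, 2.83 and 9.84 and radial glia 2.91, 1.34 and 7.29. In each of these 3 libraries the order was Cajal-Retzius, GABAergic, glutamatergic, radial glia, although levels within a class differed up to several fold between libraries. Among GABAergic cells, those with cycling markers had 4.34, 2.50 and 6.76 and the others 23.5, 10.7 and 22.4. In KO4 and KO5 the classes lay close together, with 11.4 and 12.3 in GABAergic, 9.87 and 9.68 in glutamatergic and 7.34 and 7.90 in radial glial cells. Beside this, Stmn2 in the radial glia or astrocyte gate was 15.4 and 18.3 in KO4 and KO5 against 2.78 to 7.28 in WT2-WT4, and its part in the narrower spread was not tested.

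Snrpn, which is known mainly as a neuronal transcript, was also highest in Cajal-Retzius cells, at 10.0, 11.7 and 5.48 UMIs per 10000 in WT2-WT4, with a UMI in all 31, all 13 and 38 of 43 cells. It was near 3 in glutamatergic cells (3.14, 3.33 and 3.03), lower in radial glia (2.12, 1.42 and 1.70) and below 1 in the vascular pool (0.662, 0.290 and 0.786). Ndn, a gene of differentiated neurons, was at a similar level in glutamatergic cells (2.50, 2.02 and 2.28) and radial glia (2.56, 2.30 and 2.48), higher in Cajal-Retzius cells (4.51, 4.17 and 5.08) and low in the vascular pool (0.629, 0.585 and 1.17). In KO4 and KO5 the vascular pool held more of both, 1.35 and 2.04 of Snrpn and 1.96 and 2.75 of Ndn. Stmn2 moved with them there, at 11.3 and 16.4 in the vascular pool of KO4 and KO5 against 2.43 to 6.23 in WT2-WT4.

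The other 3 members differed less between classes. Kcnq1ot1 was 1.59, 1.98 and 2.18 UMIs per 10000 in glutamatergic cells of WT2-WT4, 1.04, 1.44 and 1.55 in radial glia and 1.81, 2.65 and 3.67 in Cajal-Retzius cells. Peg3 was 1.07, 0.802 and 0.607 in GABAergic cells, against 0.404, 0.403 and 0.412 in glutamatergic cells. It had no UMI in the 16 and 11 endothelial cells of WT2 and WT3. This allows up to 0.398 and 0.648 UMIs per 10000, so these counts are too few to show a difference from glutamatergic cells. Mkrn3 stood at 0.132, 0.243 and 0.183 in glutamatergic cells and was found in 3.70% to 9.73% of them.

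Which of these class differences exceed the spread between libraries was tested with limma on log2(mean UMIs per 10000 + 1) over the neuronal (glutamatergic, GABAergic, Cajal-Retzius), glial (radial glia or astrocyte, oligodendrocyte lineage) and vascular pools of the 5 libraries, with library as a block. Differences are given on that scale, which understates the change of low genes, with the standard error (SE, n = 5 libraries) and a p-value adjusted by Benjamini-Hochberg over all 10834 genes tested. Between the neuronal and vascular pools 30% of all genes passed an adjusted p of 0.05, and 5 of the 10 members did. Igf2 (−1.63, SE 0.36, limma adjusted p = 0.00417), Dlk1 (−1.55, SE 0.26, limma adjusted p = 0.000646) and Cdkn1c (−1.14, SE 0.17, limma adjusted p = 0.000199) were lower in the neuronal pool. Snrpn (1.08, SE 0.16, limma adjusted p = 0.000160) and Ndn (0.58, SE 0.16, limma adjusted p = 0.0106) were higher there. Igf2 and Dlk1 were below 0.1 UMIs per 10000 in the neuronal and glial pools of all 5 libraries and entered the fit through the vascular pool alone, so their calls describe the class that holds them and add no weight to the count. The call for Ndn was lost without WT2, WT3 or WT4. The median of the 10 members was −0.11, that of all genes 0.02.

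Between the glial and vascular pools 24.9% of all genes passed, and 6 members did. Igf2 (−1.63, SE 0.36), Cdkn1c (−1.55, SE 0.17), Dlk1 (−1.52, SE 0.26) and Meg3 (−0.99, SE 0.20) were lower in glia, with limma adjusted p-values of 0.00552, 1.72e-05, 0.00100 and 0.00248. Ndn (0.61, SE 0.16, limma adjusted p = 0.0103) and Snrpn (0.57, SE 0.16, limma adjusted p = 0.0167) were higher in glia, and both calls were lost without WT2, WT3 or WT4. The median of the members was −0.25 and that of all genes 0.03.

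Between the neuronal and glial pools 5.04% of all genes passed and none of the members did (3 had an unadjusted p under 0.05). Meg3 was 0.69 higher in neurons (SE 0.20, limma adjusted p = 0.0602) and Snrpn 0.51 higher (SE 0.16, limma adjusted p = 0.0827), both in 5 of 5 libraries. In the WT libraries alone both passed, at 0.93 (limma adjusted p = 0.0229) and 0.66 (limma adjusted p = 0.00446), and both passed without KO5. edgeR on the UMIs called 4 members, namely H19, Cdkn1c, Kcnq1ot1 and Snrpn, beside 32.1% of all genes. H19 was at 0.0421 to 0.0766 UMIs per 10000 in the neuronal pool, below the filter of 0.1 in all 5 libraries. It entered through the glial and vascular pools, so its call adds no weight to the count. The WT libraries alone also gave wider differences from the vascular pool, −2.51 for Igf2 and −2.08 for Dlk1 between the neuronal and the vascular pool. In that fit 8 of 10 members passed, beside 37.2% of all genes. Of these, Igf2, Dlk1 and H19 were below the filter of 0.1 in the neuronal pool and Mkrn3 in the vascular pool of WT2-WT4. They entered through the pools where they are higher, so their calls add no weight to the count.

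**Figure D2:**
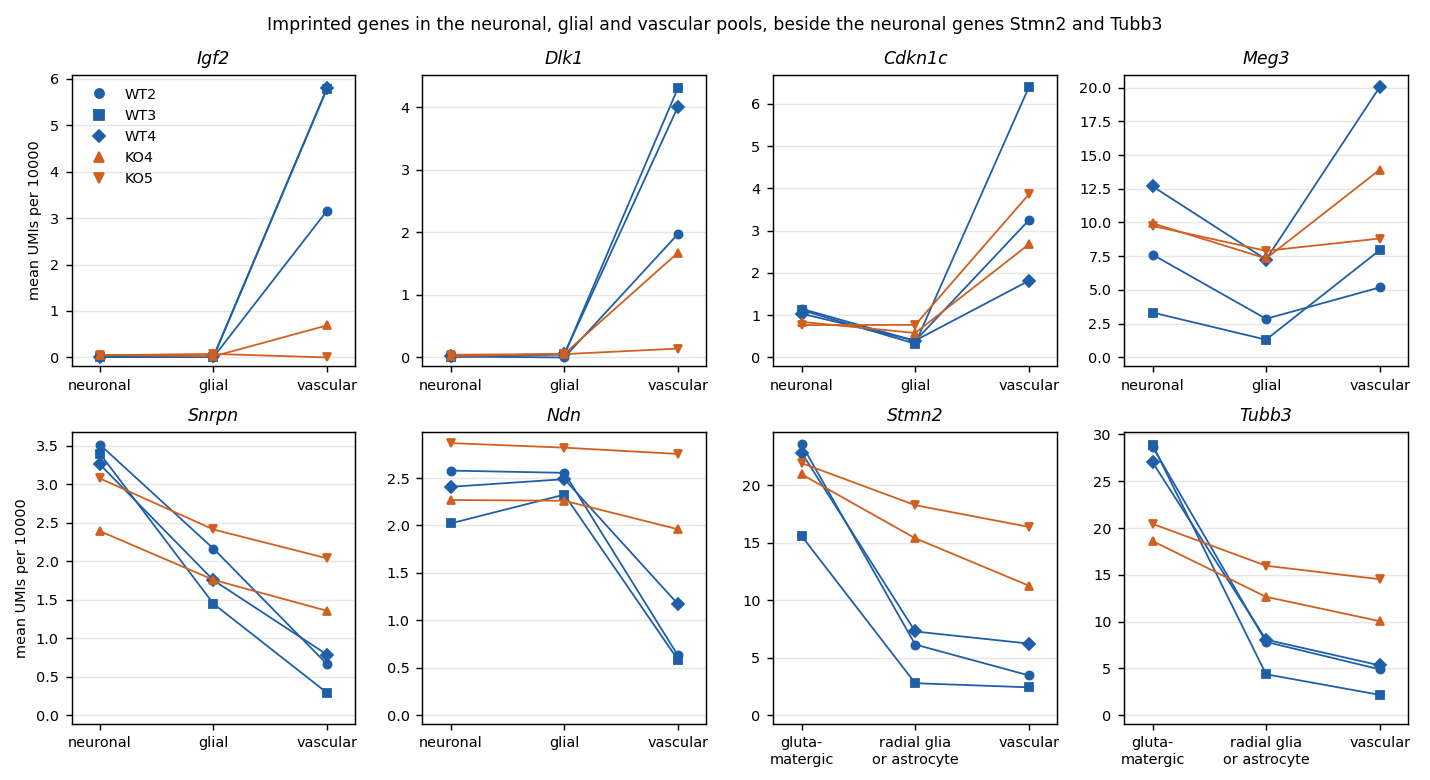
Mean UMIs per 10000 (y axes) of 6 imprinted genes in the neuronal, glial and vascular pools, and of the neuronal genes Stmn2 and Tubb3 in the glutamatergic gate, the radial glia or astrocyte gate and the vascular pool. Lines join the values of a library, with WT in blue and KO in orange. In WT2-WT4, Igf2 and Dlk1 stand clear of 0 in the vascular pool alone among the 3 pools, and Stmn2 and Tubb3 fall less from neurons to the other cells in KO4 and KO5 than in WT2-WT4.

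**Figure D3:**
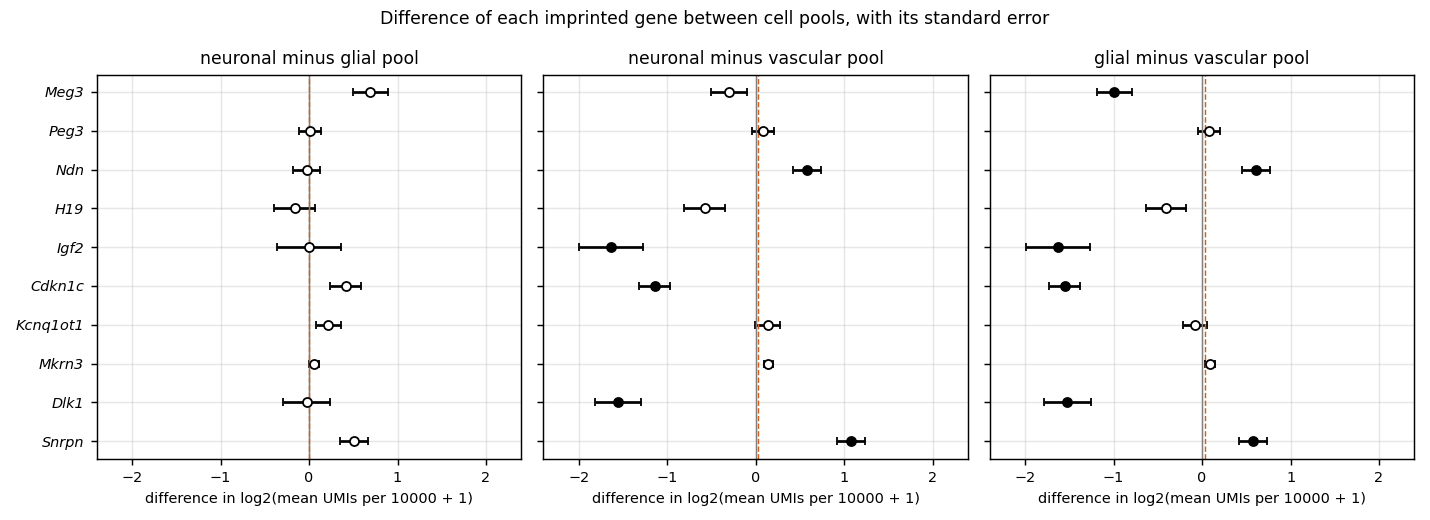
Difference between cell pools in log2(mean UMIs per 10000 + 1) for the 10 imprinted genes (x axes), with bars of 1 standard error from limma over 5 libraries. Filled points passed an adjusted p of 0.05, and the dashed line is the median of all genes tested. Igf2, Dlk1 and Cdkn1c lie far below 0 against the vascular pool, and Ndn and Snrpn lie above it.

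Other imprinted genes were followed on a list of 53, of which 30 could be tested between the pools. Against the vascular pool 6 were higher and 11 lower in neurons, beside 1688 higher and 1565 lower of all 10834 genes. The largest differences were those of Cd81, a tetraspanin (−2.10), Mest, a hydrolase gene (−1.51), and Gnas, the stimulatory G protein subunit (−0.93), and, in the other direction, Nnat, the membrane protein neuronatin (1.35), Ube3a, a ubiquitin ligase (0.50), and Usp29, a deubiquitinase gene (0.42). Nnat stood at 17.2, 14.5, 24.0, 14.9 and 17.8 UMIs per 10000 in the neuronal pool of WT2, WT3, WT4, KO4 and KO5. Between the glial and vascular pools 4 were higher and 9 lower in glia, led by Nnat (0.76), Nap1l5 (0.46) and Plagl1, a zinc finger gene (0.43), and by Cd81 (−1.41), Gnas (−0.66) and Mest (−0.62). Against glia 5 were lower in neurons and none higher, with Mest (−0.89), Cd81 (−0.69) and Plagl1 (−0.49) the furthest apart. The medians of the 30 genes were −0.00 (neuronal against vascular), 0.03 (glial against vascular) and −0.00 (neuronal against glial).

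The genes whose levels followed each member most closely were ranked by Pearson's r over 33 class-by-library means in 10 classes, which share libraries and markers and are given as a description. Dlk1 ran closest to Kcnj8 (r = 0.98), Vtn (0.98) and Pdgfrb (0.97), pericyte genes that are themselves markers of the mural gate. Igf2 ran with Ggt5 (0.94), Colec12 (0.93) and Rarres2 (0.89), and Cdkn1c with Ets2 (0.87), Bcam (0.87) and Cdkn1a (0.86), the last another kinase inhibitor. H19 ran with Ggta1, Osmr and Xaf1 (0.86 to 0.85). Snrpn followed Ttc9b, Acot7 and Calm2 (0.88 to 0.87) and Ndn followed Rtn1, Ahi1 and Ngfrap1 (0.87 to 0.85). For Meg3 (Tmem130, 0.78), Kcnq1ot1 (Usp9x, 0.71) and Peg3 (Magi2, 0.68) the closest gene was further off. Mkrn3 did not reach 0.5 UMIs per 10000 in any class and was not ranked. No member was among the 3 closest genes of another.

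Whether loss of Tcf4 goes with other levels of these genes was tested in the glutamatergic gate, the GABAergic gate, the radial glia or astrocyte gate and over all kept cells. In the glutamatergic gate 3.39% of 8318 genes passed and none of the 7 members tested did, with 3 at an unadjusted p under 0.05. H19, Igf2 and Dlk1 were below 0.1 UMIs per 10000 and were not tested there. Cdkn1c stood at 1.21, 1.19 and 1.18 UMIs per 10000 in WT2-WT4 and at 0.839 and 0.767 in KO4 and KO5. Both KO libraries lay below all 3 WT libraries, as they did for Peg3 (0.404, 0.403 and 0.412 against 0.287 and 0.300) and Kcnq1ot1 (1.59, 1.98 and 2.18 against 1.55 and 0.928). Without overlap in either direction, these 3 of 7 members stand beside 48.5% of all genes tested. The differences were −0.28 for Cdkn1c (SE 0.07, limma adjusted p = 0.0698), −0.12 for Peg3 (SE 0.05, limma adjusted p = 0.157) and −0.39 for Kcnq1ot1 (SE 0.13, limma adjusted p = 0.127). The median of the 7 members was −0.12 and that of all genes −0.04.

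Meg3 in the glutamatergic gate was 9.87 and 9.68 in KO4 and KO5 and 5.40, 2.83 and 9.84 in WT2-WT4, a difference of 0.74 (SE 0.44, limma adjusted p = 0.338) that did not exceed the spread of the WT libraries. Without WT4, Meg3 and Cdkn1c both passed, together with 1155 genes in place of 282, while 69 genes passed without KO4 and 55 without KO5. Snrpn (−0.17, SE 0.11), Ndn (0.11, SE 0.11) and Mkrn3 (−0.06, SE 0.05) had limma adjusted p-values of 0.347 to 0.544.

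In the radial glia or astrocyte gate 13% of 9106 genes passed and none of 8 members did, with 2 at an unadjusted p under 0.05. The 1188 genes called became 258 without KO4 and 86 without KO5. Cdkn1c was higher in both KO libraries, 0.578 and 0.769 UMIs per 10000, than in WT2-WT4, at 0.403, 0.323 and 0.390 (difference 0.28, SE 0.10, limma adjusted p = 0.0611). H19 was lower in both, 0.124 and 0.0680 against 0.303, 0.158 and 0.348 (−0.21, SE 0.07, limma adjusted p = 0.0650). Meg3 was 7.34 and 7.90 against 2.91, 1.34 and 7.29 (1.02, SE 0.65, limma adjusted p = 0.396). These 3 members did not overlap between the genotypes, beside 47.7% of all genes tested. Of the 24 other imprinted genes tested, 3 fell: Cd81 from 6.58, 7.03 and 5.96 to 2.52 and 1.89 (−1.23, SE 0.15, limma adjusted p = 1.46e-05), Mest (−0.66, SE 0.15, limma adjusted p = 0.00534) and Grb10, a growth factor receptor adaptor (−0.52, SE 0.12, limma adjusted p = 0.00634). Stmn2 in the same cells was 15.4 and 18.3 in KO4 and KO5 and 2.78 to 7.28 in the WT libraries, and its part in these differences was not tested. Nor was that of cells at exactly 3 markers. These were 151 of 337 and 90 of 156 in KO4 and KO5, against 23 of 129, 13 of 156 and 55 of 498 in WT2-WT4.

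Cdkn1c pointed down in KO neurons and up in KO radial glia, with neither difference called. Because this had been seen, the difference between the genotype effects of these gates was fitted as an interaction, with library as a block. Since the pattern prompted the fit, its values are a description and no p is given. Of 9554 genes, 16.3% passed, and 2 of the 8 members did. The genotype difference of Cdkn1c was 0.57 higher in the radial glia or astrocyte gate than in the glutamatergic gate (SE 0.10). That of H19 was −0.24 (SE 0.07), but H19 was below 0.1 UMIs per 10000 in the glutamatergic gate and entered the fit through the radial glia or astrocyte gate, so the value mostly repeats the difference of −0.21 there. Cdkn1c in glia and neurons was 0.578 and 0.839 in KO4 and 0.769 and 0.767 in KO5. In the library labelled WT5 it was 0.802 and 0.910. Stmn2 in glia stood at 73%, 83% and 89% of its glutamatergic level in KO4, KO5 and WT5, and its part in the Cdkn1c values was not tested. With all 9 libraries as labelled neither gene passed, in a fit that called 0 of 10486 genes. The value of Cdkn1c was 0.42 or more under every alternative run, and that of H19 was 0.0069 with all 9 libraries.

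In the GABAergic gate 1.91% of 8724 genes passed and none of 8 members did, with 3 at an unadjusted p under 0.05. KO5 contributed 17 cells to it and KO4 contributed 53. Cycling cells were 33 of 62, 48 of 86 and 231 of 1158 in WT2-WT4 and 7 of 53 and 1 of 17 in KO4 and KO5, and the part of this mix in the differences was not tested. Ndn was 3.19 and 4.29 in KO4 and KO5 against 2.31, 1.70 and 2.65 (0.56, SE 0.23, limma adjusted p = 0.199). Mkrn3 and H19 had no UMI in the GABAergic cells of KO4 and KO5, which allows up to 0.212 and 0.798 UMIs per 10000, and stood at 0.269, 0.135 and 0.149 and at 0.264, 0.191 and 0.0678 in WT2-WT4. They passed the filter through WT alone, and these counts are too few to show a difference. Cdkn1c was 0.865 and 0.756 in KO4 and KO5 against 0.460, 0.372 and 0.593 (0.30, SE 0.19, limma adjusted p = 0.404). Without KO4, Ndn passed, together with 1660 genes in place of 167, in a fit whose KO arm is the 17 cells of KO5 and which takes the spread of that single library from WT2-WT4; 13 genes passed without WT2. Of 22 other imprinted genes, Grb10 alone passed. It stood at 1.18, 0.664 and 0.238 in WT2-WT4 and had no UMI in KO4 and KO5, where the same limits of 0.212 and 0.798 apply, so it too passed the filter through WT alone, and its call is no support for a difference.

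Over all kept cells 1.15% of 8554 genes passed (98, and by limma 0 without WT2) and none of 7 members did, with 1 at an unadjusted p under 0.05. Exact 2-sided permutation tests of the library means were added, which cannot give less than p = 0.2 with 3 libraries against 2. For Cdkn1c the 3 WT libraries gave 0.994 ± 0.0586 (SD, n = 3) and the KO libraries 0.816 ± 0.0213 (SD, n = 2), with an exact permutation p = 0.2. With all 9 libraries as labelled the WT mean was 0.958 ± 0.0663 (SD, n = 5) and the KO mean 0.576 ± 0.279 (SD, n = 4), with each of the 4 KO libraries below each of the 5 WT libraries. This is the smallest p that 5 against 4 can give (exact permutation p = 0.0159, adjusted over the 10 members 0.159), and 1.03% of 9117 genes were likewise lower in every KO library. Genes higher in every KO library, which a 2-sided p also covers, were not counted. For Cdkn1c the KO libraries were 0.307, 0.365, 0.831 and 0.801 in KO1, KO2, KO4 and KO5 and the WT libraries 0.884 to 1.03. KO1 and KO2 held more radial glia (26.6% and 35.6% of cells) than any WT library (4.88% to 19.05%), and the part of this mix was not tested. In the glutamatergic gate Cdkn1c was 0.369, 0.294, 0.839 and 0.767 in the 4 KO libraries and 0.910 to 1.21 in the 5 WT libraries. The share of all genes that separate likewise in that gate was not counted. KO2 gave 6 UMIs of Cdkn1c in 43 of these cells and WT1 gave 9 in 23. Tcf4 in WT1, WT5 and KO1 went against their labels. Snrpn gave an exact permutation p = 0.0317 over the 9 libraries (adjusted 0.159), with a WT mean of 3.09 ± 0.181 (SD, n = 5) and a KO mean of 2.60 ± 0.357 (SD, n = 4).

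**Figure D4:**
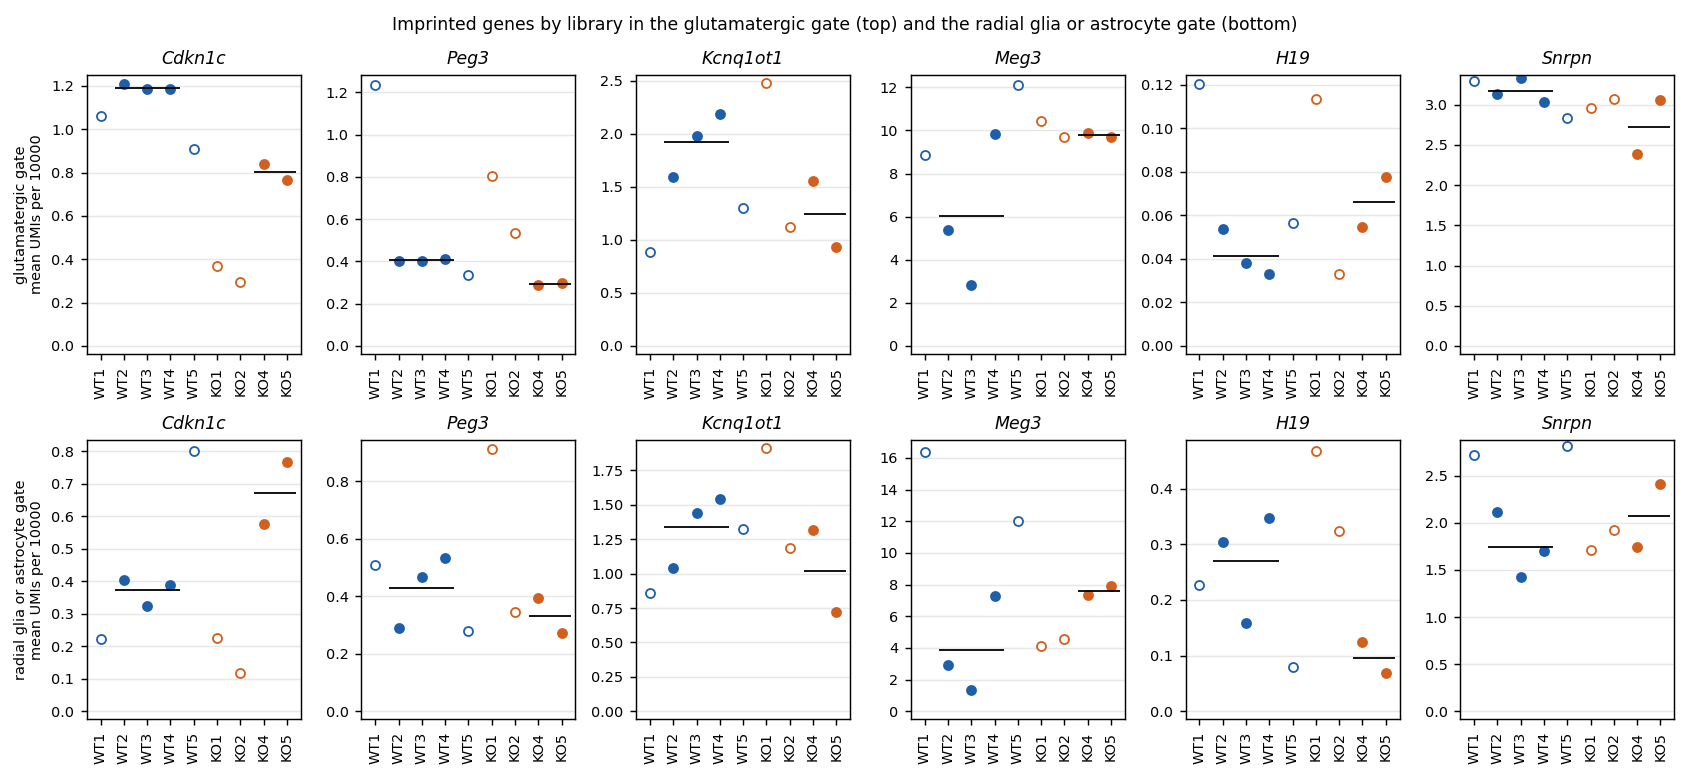
Mean UMIs per 10000 (y axes) of 6 imprinted genes by library (x axes) in the glutamatergic gate (top row) and the radial glia or astrocyte gate (bottom row). Filled points are the 5 libraries compared, whose group means are drawn as lines, and open points are WT1, WT5, KO1 and KO2. Cdkn1c is lower in all KO libraries than in all WT libraries in the glutamatergic gate, where the share of all genes that separate likewise was not counted. Its WT5 value lies with KO4 and KO5 in the radial glia or astrocyte gate. WT1 and KO2 held 23 and 43 glutamatergic cells, and Tcf4 in WT1, WT5 and KO1 went against their labels.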

How the data were processed

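Single cells of E18.5 neocortex were profiled with the Chromium 3′ v2 kit. Per the study's methods, Cell Ranger aligned the reads to GRCm38 (Ensembl 84) and counted UMIs, and Seurat 2.3.4 filtered the cells. The authors deposited whole UMI counts per gene and cell for WT4, WT5, KO4 and KO5, and for WT1, WT2, WT3, KO1 and KO2 deposited the natural log of 1 plus UMIs per 10000. The latter came back to whole UMIs for 100% of values within 1e-06. A gene without a row in a library was set to 0, and symbols were matched to GENCODE vM21, another release than that of the files.

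Cells with 1000 to 5000 genes, 1800 to 10000 UMIs, under 6% mitochondrial and at most 1% haemoglobin UMIs were kept, 126, 1184, 1617, 6173, 3630, 331, 118, 4199 and 2303 in WT1 to WT5, KO1, KO2, KO4 and KO5. The haemoglobin limit removed 0.421% to 13.9% of cells and 40.4% in KO5. Library totals were 335764 to 29573654 UMIs. No doublet caller was run, and cells with markers of 2 classes in equal number stayed ungated. A pair of libraries shared at most 39 barcodes and at most 1.69% of the smaller library. A cell counted as cycling with UMIs of at least 3 of 8 cycling markers.

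Means over cells of a library (at least 10 cells a class) were tested with limma-trend and robust variances (limma 3.58.1, R 4.3.3) on log2(mean + 1), for genes at 0.1 or more in at least 2 libraries, with Benjamini-Hochberg adjustment and calls below 0.05. edgeR 4.0.16 quasi-likelihood and DESeq2 1.42.0 on the recovered UMIs, a pseudocount of 0.1, no filter, thinning to 1800 UMIs, other gates, other cell limits and left-out libraries were tried. The scripts were tested on simulated data. For the replicate block, WT2, WT4, WT5 and KO2, KO4, KO5 were paired by number, and the labels give no other basis for a pair. Deviations from the group means of same-numbered libraries correlated at 0.58, 0.35 and 0.46 over 1479 genes of the glutamatergic gate. Libraries of unlike number correlated at −0.49 (WT2 with KO4) to 0.20 (WT5 with KO4). Deviations within a group sum to 0, so these values depend on each other and are no test of pairing. KO2 held 43 cells in this gate. Shares of cells and counts of 0 carry counting error only.

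The members, the marker lists and the list of other imprinted genes were chosen with earlier results of these data known. Named genes were the 10 members, other imprinted genes called in a genotype fit, and the 3 called with the largest difference in each direction of each class contrast. The 3 genes closest to each member that reached 0.5 UMIs per 10000 in a class, and Tcf4, were named too. So were Stmn2 and Tubb3, picked after their values were seen, and some leading genes of the gates.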

Additional observations from a re-analysis of the deposited data

Results flagged for a closer look

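Over all kept cells, WT1 stood apart from the other 4 libraries labelled WT for 3 members: H19 at 0.551 UMIs per 10000 (0.0618 to 0.0938 in the others), Igf2 at 0.533 (0.0446 to 0.0880) and Dlk1 at 0.0932 (0.0624 to 0.0690). Dixon's criterion was applied to 20 groups of libraries and marks about 1 in 20 by chance. WT1 held 126 cells, of which 2 in the fibroblast gate held 33 UMIs of H19 and 35 of Igf2.

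Cdkn1c was lower in KO neurons and higher in KO radial glia of the 5 libraries compared. Neither difference was called (limma adjusted p = 0.0698 and 0.0611), and the second was −0.018 with all 9 libraries as labelled. A fit prompted by the opposite directions put the genotype difference in the radial glia or astrocyte gate 0.57 (SE 0.10) above that in the glutamatergic gate, on the log2(mean + 1) scale. For H19 the value was −0.24 (SE 0.07), in a gene below the filter in the glutamatergic gate. Stmn2 in the radial glia or astrocyte gate was 15.4 and 18.3 UMIs per 10000 in KO4 and KO5 and 2.78 to 7.28 in WT2-WT4, and its part was not tested.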

How the results depend on the processing

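Of 947 values under alternative settings, 840 kept their direction and their side of the threshold, 14 lost the call, 37 gained it and 56 changed sign; where a cause is not given, the cause was not tested. Cdkn1c kept its calls against the vascular pool under every alternative run, as did Igf2 and Dlk1, which passed the filter through that pool alone.

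Leaving out each library in turn gave 0 to 2 called members in the glutamatergic gate (2 without WT4), 0 to 1 in the GABAergic gate (1 without KO4), 0 to 1 in the radial glia or astrocyte gate (H19 without WT3, Meg3 without WT4), 0 to 2 between the neuronal and glial pools (2 without KO5) and 1 to 3 for the interaction, where H19 lost its call without WT4 or KO5. It gave 4 to 6 called members in each contrast with the vascular pool, beside 2236 to 3837 genes of all for neuronal against vascular and 1646 to 3106 for glial against vascular. Over all genes it gave 55 to 1155 calls in the glutamatergic gate, 13 to 1660 in the GABAergic gate, 86 to 1613 in the radial glia or astrocyte gate and 0 to 1394 over kept cells; the lone library left in an arm is assumed to vary like the others. Differences that changed sign ranged from −0.015 to 0.23 (Ndn, glutamatergic), −0.41 to 0.35 (Meg3, GABAergic), −0.074 to 0.15 (Ndn, radial glia), −0.0059 to 0.87 (Meg3, kept cells) and −0.062 to 0.21 (Ndn, kept cells). Between pools they ranged from −0.047 to 0.038 (Peg3) and −0.014 to 0.0082 (Igf2) for neuronal against glial, −0.041 to 0.20 (Peg3) for neuronal against vascular, −0.0097 to 0.20 (Peg3) and −0.21 to 0.073 (Kcnq1ot1) for glial against vascular, and −0.053 to 0.095 (Peg3) and −0.0022 to 0.037 (Mkrn3) for the interaction.

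Other settings changed the number of called members to 1 in the glutamatergic gate without a filter (Igf2), to 1 in the GABAergic gate with a minimum of 4 markers or a lead of 2 (Kcnq1ot1), and to 1 in the radial glia or astrocyte gate with a minimum of 2 markers (Cdkn1c). Between the neuronal and glial pools 2 were called with a minimum of 4 markers, a lead of 2 or the WT libraries alone, and 4 by edgeR. The 4 include H19, which did not pass the filter through the neuronal pool. Between the neuronal and vascular pools 8 were called in the WT libraries alone. These include Igf2, Dlk1 and H19, which did not pass the filter through the neuronal pool, and Mkrn3, which did not pass it through the vascular pool. The interaction kept 1 call when thinned (H19 was lost) and 0 with all 9 libraries.

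In the GABAergic gate Meg3 was −0.18 by edgeR, −0.12 by DESeq2, −0.22 and −0.083 with a minimum of 2 and 4 markers and −0.15 with haemoglobin-high cells. Snrpn was 0.23 with a minimum of 4 markers and Mkrn3 0.019 with haemoglobin-high cells. In the radial glia or astrocyte gate Ndn was −0.031 when thinned, −0.020 with a minimum of 2 markers and −0.093 with a lead of 2. Between the neuronal and glial pools edgeR gave −0.032 for Peg3 and 0.028 for Ndn, and the WT libraries alone gave −0.031 for Kcnq1ot1 between the neuronal and vascular pools.

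With all 9 libraries as labelled, Ndn was −0.30 in the glutamatergic gate. In the radial glia or astrocyte gate Meg3 was −0.053, Peg3 0.050, Ndn −0.34, H19 0.020, Cdkn1c −0.018, Kcnq1ot1 0.011 and Snrpn −0.083. Over kept cells Peg3 was 0.022 and Ndn −0.29 in the fit, and the difference of mean UMIs per 10000 was −0.522 for Meg3, 0.0314 for Peg3, −0.647 for Ndn and 0.0138 for H19. The interaction was −0.49 for Meg3, 0.0069 for H19 and −0.029 for Mkrn3.

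The replicate block needed WT2, WT4, WT5, KO2, KO4 and KO5, and changed no call of a member. With the block, Meg3 was −0.31 in the GABAergic gate (−0.26 in the same 6 libraries without it). In the radial glia or astrocyte gate Meg3 was −0.013, Ndn −0.12, Cdkn1c −0.058 and Snrpn −0.077, and over kept cells Meg3 was −0.16 and Ndn −0.069, each the same without the block.

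Over all genes, calls in the glutamatergic gate went from 282 to 412 by DESeq2 and 79 without a filter. In the GABAergic gate they went from 167 to 50 by DESeq2, 70 with a pseudocount of 0.1 and 0 without a filter. In the radial glia or astrocyte gate they went from 1188 to 707 by edgeR, 443 by DESeq2, 144 without a filter, 757 when thinned, 600 with a minimum of 4 markers and 730 with a lead of 2. Over kept cells they went from 98 to 330 by DESeq2 and 36 without a filter. With all 9 libraries the 4 genotype fits called 0 genes by limma, and the 6 libraries of the block 0 to 1. Between the neuronal and glial pools calls went from 546 to 3479 by edgeR, 186 without a filter, 256 when thinned, 319 and 1454 with a minimum of 2 and 4 markers, 1175 with a lead of 2 and 1448 in the WT libraries alone. Few vascular cells, 13 in KO5, limit the precision of every vascular value.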
